A study of Mus musculus with 12 samples.

Results

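Lcn2 and 9 other genes used as markers of kidney tubule injury (Havcr1, Spp1, Clu, Vcam1, Krt20, Timp1, Sox9, Cdkn1a and C3) were followed through 12 RNA sequencing libraries of sorted mouse kidney cells. They were taken from the deposited table by gene symbol. Of the 10, 9 had a row among the 23378 genes of the table, and Timp1 is not analysed here. After the filter on low counts 8 of the 9 stayed among the 14180 genes tested, and Havcr1 did not. The genes were chosen from the levels in libraries of mice on low salt plus enalapril, where single libraries differed widely. For the members, every value that uses those libraries is therefore given as a description with no p-value. Only the comparison of the cell populations on control diet is read as a test of them. Counts of all genes called are given for every comparison as background.

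All mice were C57BL/6 of the model nNosCreERT2-mTmG, in which the inducible Cre of the neuronal nitric oxide synthase gene turns a membrane-bound red reporter into a green one. After digestion of the kidney cortex, the green fraction was collected as macula densa cells. The most intensely red fraction was collected as control cells, which the labels take for epithelium of distal tubule and collecting duct. The groups were control cells on control diet (4 libraries), control cells on low salt plus enalapril (4), macula densa cells on control diet (2) and macula densa cells on low salt plus enalapril (2). For 14 days mice received either control diet or a low salt diet together with enalapril, which blocks angiotensin-converting enzyme, at 150 mg/L of drinking water. Below, "treated" means low salt plus enalapril and "untreated" means control diet. The labels give no age and do not say that libraries came from separate mice, so p-values measure only the spread between these samples, which may be technical.

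Injured tubule cells are known to switch on secreted and surface proteins that healthy tubules make little of. Neutrophil gelatinase-associated lipocalin (Lcn2) and kidney injury molecule 1 (Havcr1) are released into urine and serve as injury markers, while Spp1 and Clu are also made by uninjured distal segments. Macula densa cells form a small plaque where the thick ascending limb meets its own glomerulus, sense tubular salt and control renin release, and a low salt diet with enalapril is a strong stimulus to that control.

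The total depth was 4259020 to 14856542 estimated counts per library, of which 781257 to 2331481 fell in protein-coding genes. A count of 3 equalled 0.230 to 0.732 CPM (counts relative to the library total after TMM scaling), and a level at or under this floor rests on at most 3 counts. Gm42418 alone held 53.5 to 65.0% of the counts of a library, and Mir6236 held 6.76 to 13.7%. Treated control-cell replicates 1 and 3 had the lowest TMM factors (0.877 and 0.804, against 0.918 to 1.13 elsewhere). Gm42418 was also highest in them, at 740349 and 754739 CPM against 481838 to 683339 CPM. Any link of these values to the members' levels was not tested. The sort markers followed the labels. Nos1 lay at 100.3 to 231.8 CPM in the 4 macula densa libraries and at 0.109 to 0.732 CPM in the 8 control-cell libraries. Ren1, the renin gene, lay at 42.7 to 134.9 CPM in treated and at 1.88 to 6.18 CPM in untreated control-cell libraries. Summed principal cell markers (8 of 8 in the table) lay at 104.2 to 898.8 CPM in control-cell and at 11.3 to 41.5 CPM in macula densa libraries. The control-cell libraries also held glomerular and vascular RNA. Their summed podocyte markers (7 of 7 in the table) ranged from 43.6 to 1344 CPM on control diet and from 134.6 to 1092 CPM on low salt plus enalapril, and no marker was at 0. In these sorted pools, more cells of a type and more RNA per cell cannot be told apart.

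Short stretches upstream of annotated starts are shown for the members whose windows held a match to the core of a C/EBP factor or of p53. The C/EBP genes Cebpd and Cebpb and p53 targets are described below. Any part of these matches in the members' levels was not tested. RefSeq promoter windows (GRCm38.p6) were given for 6 of the 9 genes, as 10 windows, and the 250 bases before each start were searched on both strands. The C/EBP letters TTGCNNAA were found in 4 of the 10 windows, for 4 of the 6 genes, and in 9.56% of 32851 windows of the same length. Capitals mark the match, which is a description and not a shown binding site.
Lcn2 (chr2:32387937-32387966, minus strand, inside the GENCODE gene model): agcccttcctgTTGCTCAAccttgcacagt
Spp1 (chr5:104436025-104436054, plus strand, inside the gene model): ctttttcttccTTGCAGAAagtactctcat
Havcr1 (chr11:46750454-46750483, plus strand, inside the gene model; match on the other strand): tgtttttatggTTTAGCAAttaagaagcag
C3 (chr17:57228163-57228192, minus strand, upstream of the gene model): aggaaactatgTTGCGAAAttttgggcagt
Cdkn1a, first p53 half-site (chr17:29090896-29090925, plus strand): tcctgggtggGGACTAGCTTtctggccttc
Cdkn1a, other p53 half-site (chr17:29090918-29090947, plus strand): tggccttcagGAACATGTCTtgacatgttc
The p53 half-site, searched by its name, was present in 7.13% of all windows and, among the members, in a window of Cdkn1a alone. TATAAA, in 12.4% of all windows, was found for Krt20 and Spp1. No match was present in the members' windows for NF-kB by its name (3.90% of all windows), AP-1 as TGANTCA (6.75%), STAT as TTCNNNGAA (7.02%) or SOX as AACAAT (9.42%). The matches found did not overlap each other.

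Lcn2 encodes a small secreted lipocalin that binds bacterial iron carriers (chromosome 2, 32384633 to 32388252, minus strand, GRCm38). In untreated control cells Lcn2 lay near the floor, at 0.326, 0.469, 1.43 and 1.34 CPM in replicates 1 to 4. In treated control cells it lay at 136.0, 7.32, 194.3 and 2.94 CPM. Replicates 1 and 3 were more than an order of magnitude above replicates 2 and 4, and yet all treated libraries were above all untreated ones. In macula densa cells Lcn2 had 0 and 7 counts in the untreated libraries and 61 and 85 counts in the treated ones, where its level was 11.7 and 13.9 CPM. Both treated macula densa libraries thus lay between the low and the high treated control-cell libraries. The fitted log2 change with treatment was 6.55 ± 1.26 (SE) in control cells and 5.31 ± 1.88 in macula densa cells, whose untreated level rests on 7 counts. In control cells it was 2.45 ± 0.70 when replicates 1 and 3, the highest in Lcn2, were both left out.

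**Figure D1:**
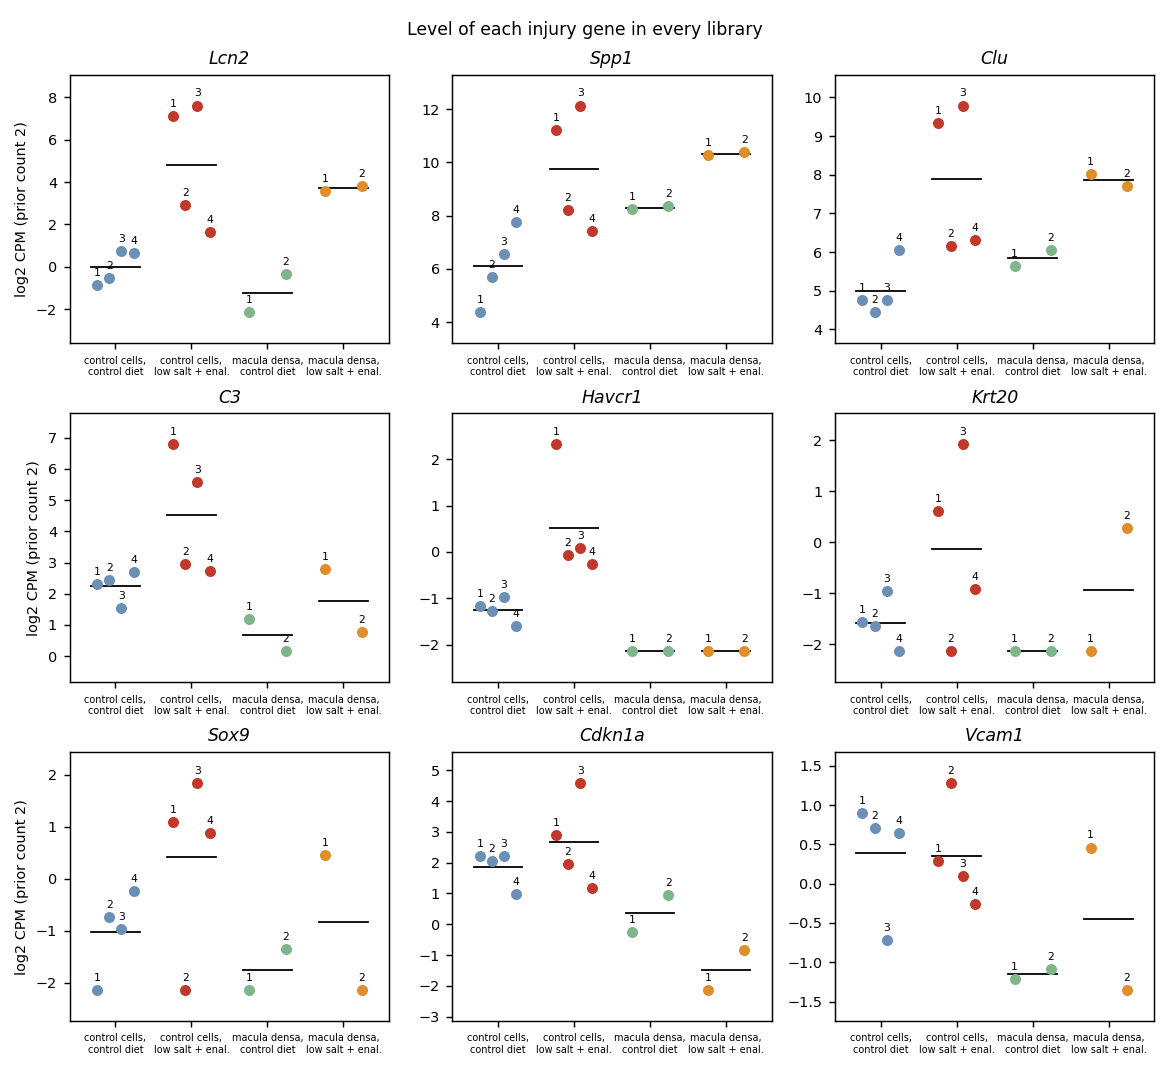
Each panel plots the log2 CPM (prior count 2) of a gene in every library, with the 4 groups on the horizontal axis, the replicate number above each point and a line at the group mean. Treated control-cell replicates 1 and 3 are the highest 2 of their group for Lcn2, Spp1, Clu, C3, Krt20, Sox9 and Cdkn1a, while for Havcr1 replicate 1 stands alone and for Vcam1 replicate 2 is the highest.

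Havcr1, a phosphatidylserine receptor of the proximal tubule surface (chromosome 11, 46735080 to 46779578, plus strand), was at or near the floor everywhere but in 1 library. Its counts were 2, 2, 3 and 1 in untreated and 62, 3, 4 and 6 in treated control cells. All 4 macula densa libraries had 0 counts, which allows up to 0.574 CPM in the shallowest of them. The ratio of the treated to the untreated control-cell level was 11.8 (exact 95% interval 5.71 to 28.4, counting error only), and 62 of the 75 treated counts came from replicate 1. Replicate 3, which held the most Lcn2, had 4 counts of Havcr1. Summed proximal tubule markers (10 of 10 in the table) were 33.9 CPM in replicate 1 and 37.8, 11.1 and 60.5 CPM in replicates 2 to 4. The part of proximal tubule RNA in the Havcr1 value was not tested.

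Spp1 encodes osteopontin, a secreted phosphoprotein that binds integrins and CD44 (chromosome 5, 104435118 to 104441050, plus strand). It was the most abundant member per kilobase of exon in all 4 groups, with a mean of 58.2 CPM per kb in untreated control cells and 191.2 in untreated macula densa cells. Untreated control cells held 20.5, 51.1, 95.1 and 216.7 CPM, a wide range before any treatment. Treated control cells held 2397, 293.1, 4487 and 170.8 CPM, so that replicate 4 fell inside the untreated range. Macula densa cells held 304.3 and 326.0 CPM untreated and 1235 and 1336 CPM treated, without overlap. The fitted log2 change was 4.26 ± 1.004 (SE) in control cells, or 1.27 ± 0.66 without replicates 1 and 3, and 2.03 ± 1.29 in macula densa cells. Gm42793, an annotated transcript on the same strand, overlaps Spp1 but had only 247.3 counts over all libraries.

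Clu encodes clusterin, a secreted chaperone (chromosome 14, 65968483 to 65981547, plus strand). It lay at 27.0, 21.6, 26.9 and 66.0 CPM in untreated control cells and at 647.7, 71.3, 886.2 and 79.6 CPM in treated ones. Macula densa cells held 50.0 and 65.9 CPM untreated and 259.5 and 210.4 CPM treated. Treated libraries were above untreated libraries in both populations, although treated control-cell replicates 2 and 4 exceeded untreated replicate 4 by little. The fitted log2 change was 3.57 ± 0.77 (SE) in control cells, 1.09 ± 0.39 without replicates 1 and 3, and 2.02 ± 1.02 in macula densa cells.

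C3, the central complement component (chromosome 17, 57203970 to 57228136, minus strand), lay at 4.78, 5.25, 2.66 and 6.19 CPM in untreated control cells. Treated control cells held 109.8, 7.56, 47.4 and 6.40 CPM. The groups did not overlap, but replicates 2 and 4 were only just above the highest untreated library. Here replicate 1 exceeded replicate 3, the reverse of Lcn2, Spp1 and Clu. Macula densa cells held 2.05 and 0.894 CPM untreated and 6.69 and 1.47 CPM treated, which overlap. The fitted log2 change was 3.19 ± 0.82 (SE) in control cells, 0.56 ± 0.53 without replicates 1 and 3, and 1.47 ± 1.28 in macula densa cells. The macula densa value became -0.05 without treated replicate 1.

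Cdkn1a encodes the cell cycle inhibitor p21, a p53 target (chromosome 17, 29090976 to 29100727, plus strand). Its level was 4.46, 3.94, 4.37 and 1.75 CPM in untreated and 7.29, 3.66, 23.7 and 2.03 CPM in treated control cells, with overlap. In macula densa cells it was 0.615 and 1.71 CPM untreated, and 0 and 2 counts treated. The 2 populations had opposite signs. The treated level was below the untreated one by a ratio of 6.94 in macula densa cells (exact 95% interval 1.74 to 60.2, counting error only), and the fitted log2 change in control cells was 1.31 ± 0.66 (SE). The control-cell value rests on replicate 3, without which it was 0.27, and it became -0.39 without replicates 1 and 3.

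Krt20 and Sox9 were low. Krt20, an intermediate filament protein of urothelium and injured tubule (chromosome 11, 99428403 to 99438150, minus strand), had 1, 1, 3 and 0 counts in untreated control cells. Treated control cells had 17, 0, 17 and 3 counts, with both larger counts in the libraries high in Lcn2. Macula densa cells had 0 and 0 counts untreated, and 0 and 6 treated. Sox9, a transcription factor of tubule repair (chromosome 11, 112782224 to 112787760, plus strand), had 0, 4, 3 and 6 counts in untreated and 25, 0, 16 and 16 counts in treated control cells. In Sox9, replicate 4 was as high in counts as replicate 3, and replicate 2, the shallowest library, had none. Macula densa cells had 0 and 2 Sox9 counts untreated, and 6 and 0 treated. Summed urothelial markers (4 of 9 in the table) stayed at 0.491 to 3.82 CPM in every library.

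Vcam1, an adhesion molecule for leukocytes (chromosome 3, 116109949 to 116129688, minus strand), did not follow the others. Its level was 1.63, 1.41, 0.380 and 1.34 CPM in untreated and 0.997, 2.20, 0.839 and 0.609 CPM in treated control cells. The groups overlapped, and the fitted log2 change was -0.10 ± 0.63 (SE). Macula densa cells had 2 and 3 counts untreated and 6 and 1 counts treated.

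The spread of the treated control-cell libraries was wide for most members. The standard deviation of log2 CPM over these 4 libraries was 2.97 for Lcn2, 2.29 for Spp1, 1.99 for C3, 1.93 for Clu, 1.77 for Krt20, 1.75 for Sox9 and 1.47 for Cdkn1a. The median over the 14180 genes was 0.42. Only 0.0564% of genes had a spread as large as Lcn2, and 0.783% one as large as Clu. Vcam1, at 0.66, was exceeded by 27.3% of genes. In the 2 treated macula densa libraries Lcn2, Spp1 and Clu differed by a standard deviation of 0.18, 0.08 and 0.21, less than the median gene at 0.40. Since these spreads helped to choose the genes, they carry no test.

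On control diet, macula densa cells were compared with control cells. This is the comparison that did not enter the choice of the genes. In edgeR's quasi-likelihood test with Benjamini-Hochberg adjustment, 6.57% of all genes (931 of 14180) passed the threshold of 0.05, 382 of them upward and 549 downward in macula densa cells. Lcn2, Spp1, Clu, Vcam1, Cdkn1a and C3 passed the count filter on the untreated libraries alone, while Krt20 and Sox9 passed only through treated libraries. None of the 6 was called (0 of 6), 1 had an unadjusted p under 0.05, and the DESeq2 Wald test also called 0. A fit of the 8 libraries that share a description number, blocked by that number, called Spp1 and Clu. That fit called 2217 genes in all, against 931 in the main fit. The labels do not say what the number marks. With library totals alone in place of trimmed scaling, the split of all genes turned to 541 higher and 328 lower. A missed threshold does not show that the members are alike in both populations, since the errors are wide.

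Spp1 had the largest difference toward macula densa cells, at 315.1 ± 15.4 CPM (SD, n = 2) against 95.9 ± 86.2 CPM (SD, n = 4). The log2 difference was 1.72 ± 1.04 (SE; edgeR adjusted p = 0.341). Untreated control-cell replicate 4 alone brought the difference down from 2.50 to this value. Among untreated control-cell libraries, replicate 4 held the most principal cell marker RNA (898.8 CPM, against 132.9 to 462.2 CPM). It also held the least podocyte marker RNA (43.6 CPM, against 688.0 to 1344 CPM). The part of this cell mixture in the Spp1 difference was not tested. Clu was at 57.97 ± 11.3 CPM (SD, n = 2) against 35.4 ± 20.6 CPM (SD, n = 4), a log2 difference of 0.71 ± 0.83 (SE; edgeR adjusted p = 0.661).

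C3, Cdkn1a and Vcam1 had lower mean levels in untreated macula densa than in untreated control cells, without passing the test. C3 differed by -1.70 ± 1.12 on the log2 scale (SE; edgeR adjusted p = 0.391), and Cdkn1a by -1.61 ± 0.91 (SE; edgeR adjusted p = 0.306). Vcam1 had 5 counts in both macula densa libraries together and 47 in the control cells. The control-cell level was 5.17 times the macula densa level (exact 95% interval 2.07 to 16.7, counting error only; edgeR adjusted p = 0.141). Lcn2 differed by -1.49 ± 1.89 (SE; edgeR adjusted p = 0.692), on 7 counts against 36. Sox9 was 3.58 times as high in control cells on 2 counts against 13 (exact 95% interval 0.810 to 32.7, counting error only). Krt20 and Havcr1 were at the floor in both.

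**Figure D2:**
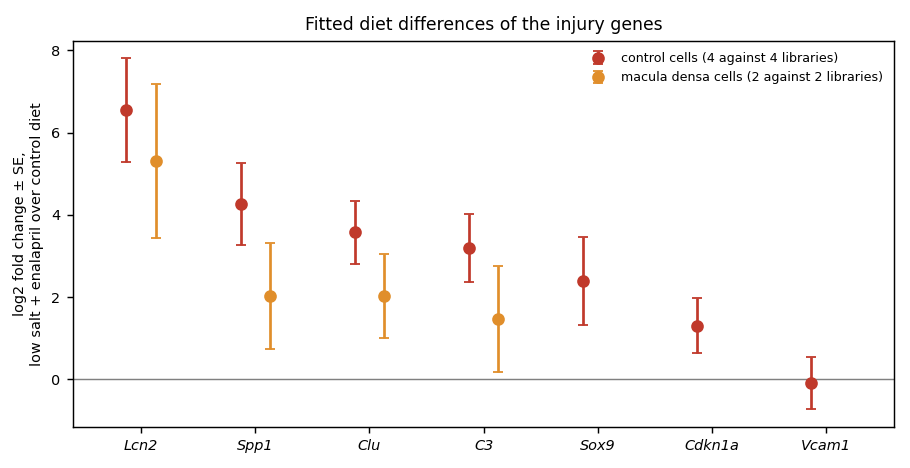
Points give the fitted log2 fold change of low salt plus enalapril over control diet and bars its standard error, for 7 genes, in control cells (red) and macula densa cells (orange). No macula densa point is drawn where a group held too few counts for a fold. Lcn2 has the largest value in both populations, 6.55 and 5.31, and Vcam1 in control cells sits at -0.10.

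The diet comparisons of control cells drew on the values that chose the genes, so nothing is read from their counts of calls. The share of all genes called by edgeR was 0.00705% in control cells, 1 gene of 14180. Lcn2, Clu and C3 were higher in every treated than in every untreated control-cell library. Havcr1 separated in CPM but not in counts, with 3 counts in both treated replicate 2 and untreated replicate 3. A separation in CPM was found for 2.12% of the genes tested, which do not include Havcr1. As the levels chose the genes, this separation carries no test.

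In macula densa cells 0% of all genes were called for diet by edgeR, 1596 genes having an unadjusted p under 0.05, against 93 genes called by the DESeq2 Wald test. Lcn2, Spp1 and Clu were higher in both treated libraries than in both untreated ones, as were 18.8% of all genes, so the separation by itself is common with 2 libraries a group. The diets shared no library between the cell populations, and the difference between the diet effects was also fitted. Here 0% of genes were called, with 996 at an unadjusted p under 0.05 and 13 by the DESeq2 Wald test. The diet effect in macula densa cells minus that in control cells was -1.24 ± 2.48 (SE) for Lcn2, -2.23 ± 1.55 for Spp1, -1.56 ± 1.21 for Clu and -1.72 ± 1.51 for C3. All 4 turned positive without treated control-cell replicates 1 and 3. The Lcn2 value also turned, to 3.13, without untreated macula densa replicate 2.

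Between the populations on low salt plus enalapril 7.28% of all genes were called (1032 of 14180, 446 upward and 586 downward in macula densa cells). The members' values are again a description. Cdkn1a was lower in macula densa cells by a ratio of 43.4 (exact 95% interval 11.9 to 360.2, counting error only), on 2 counts against 243. For Lcn2, Spp1 and Clu the direction turned without control-cell replicates 1 and 3. Lcn2 differed by -2.73 ± 1.34 (SE, log2), and by 1.37 ± 0.76 without them. Spp1 went from -0.51 ± 1.10 to 2.47 ± 0.83 and Clu from -0.84 ± 0.88 to 1.64 ± 0.48 under the same omission. C3 stayed lower, at -3.42 ± 1.14 and then -0.78 ± 0.65. Treated control-cell replicates 2 and 4 share a description number with a treated macula densa library, while replicates 1 and 3 share none. Within those shared numbers the ratio of the macula densa to the control-cell level was 1.59 and 4.73 for Lcn2. It was 4.21 and 7.82 for Spp1 and 3.64 and 2.64 for Clu, but 0.885 and 0.230 for C3. The labels do not say what the number marks. Havcr1, with no count in macula densa cells, was at least 3.26-fold lower there, with the floor of 3 counts taken over the group. The control-cell mean behind this bound rests mainly on replicate 1, which held 62 of the 75 counts.

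Some lists of cell type markers moved with the Lcn2 level among treated control-cell libraries and others did not. Summed principal cell markers were 363.3, 185.9, 104.2 and 283.3 CPM in replicates 1 to 4, not in the order of Lcn2. Neither were intercalated cell markers (119.8, 52.7, 89.5 and 87.3 CPM) or distal convoluted and connecting tubule markers (194.9, 221.3, 297.1 and 216.6 CPM). The intercalated sum was still highest in replicates 1 and 3, the libraries high in Lcn2, though replicate 3 exceeded replicate 4 by little. Summed podocyte markers were 134.6, 1092, 214.3 and 928.2 CPM in replicates 1 to 4, lowest in the libraries high in Lcn2. Summed endothelial markers (8 of 8 in the table) were 303.6, 758.9, 228.3 and 1049 CPM. Summed thick ascending limb markers (8 of 8) were 802.9, 512.4, 1069 and 358.4 CPM, in the order of Lcn2, though not every gene of that list followed it. The part of these cell mixtures in the members' levels was not tested. Macrophage and lymphocyte markers (10 of 11 in the table) summed to 14.1, 94.7, 5.45 and 56.6 CPM in treated replicates 1 to 4. Neutrophil markers (9 of 12) summed to 1.46, 2.93, 0.629 and 4.26 CPM, and 3, 4, 7 and 1 of the 9 genes were at 0. The part of neutrophil RNA in the Lcn2 level was not tested.

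**Figure D3:**
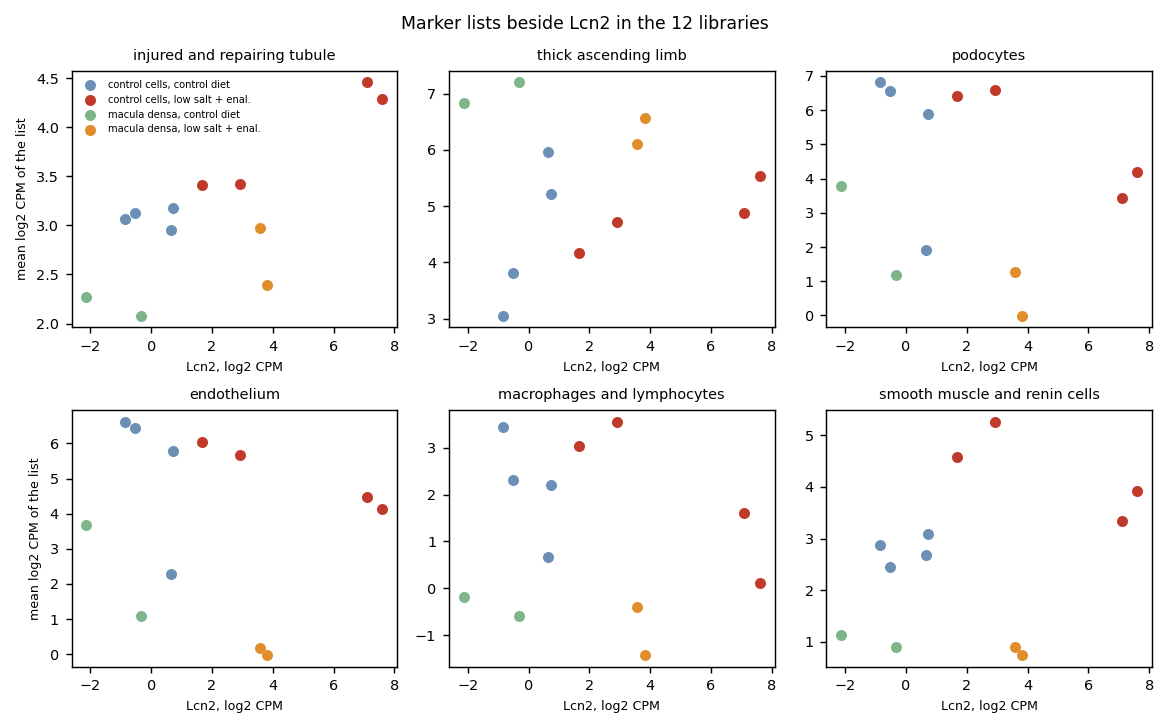
Each panel plots the mean log2 CPM of a marker list against the log2 CPM of Lcn2 in the 12 libraries, coloured by group. The 2 treated control-cell libraries with the highest Lcn2 are also the highest in the mean of other injury and repair genes (4.46 and 4.29). Of the 32 genes in that mean, 29 passed the count filter on the untreated libraries alone. The same 2 libraries lie below replicates 2 and 4 for podocyte, endothelial and leukocyte markers.

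Other injury and repair genes were followed as a list of 33, of which 29 passed the count filter on the untreated libraries alone. On control diet none of the 29 was higher and 9 were lower in macula densa cells, as were 3.87% of all genes (549 of 14180). The median log2 difference of the list was -1.10 against -0.05 over all genes. Anxa2 (-2.53 ± 0.39, edgeR adjusted p = 0.00355), Atf3 (-2.21 ± 0.41), Tpm1 (-1.27 ± 0.24) and Akap12 (-3.03 ± 0.58) were among those with the smallest adjusted p. Anxa2, Tpm1 and Akap12 bind membrane or cytoskeleton and are also expressed by vascular and glomerular cells. Podocyte and endothelial markers summed to 21.1 to 152.7 and 20.3 to 145.0 CPM in untreated macula densa libraries, under all but replicate 4 of the untreated control cells, and their part in these differences was not tested. With diet the median fitted log2 change of the 32 genes tested was 0.57 in macula densa and 0.61 in control cells. Over all genes it was -0.02 and -0.04. Of these 32 genes 3 passed the filter only through treated libraries, so the medians are a description.

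Of 19 NF-kB and cytokine target genes that passed the same filter, on control diet 4 were lower in macula densa cells and none was higher (median -0.995). The 4 were Icam1 (an adhesion molecule, -3.02 ± 0.54), Relb (an NF-kB subunit, -1.80 ± 0.40), Osmr (the oncostatin M receptor, -3.58 ± 0.80) and Csf1 (a macrophage growth factor, -3.66 ± 0.96). Macrophage and lymphocyte markers summed to 2.68 to 4.40 CPM in untreated macula densa and to 8.77 to 68.4 CPM in untreated control cells, and endothelial markers to 20.3 to 145.0 and 44.1 to 1289 CPM. Their part in these differences was not tested. Of 16 p53 targets tested, none was higher and 2 were lower, Phlda3 (0.928 to 2.93 CPM in control cells, 0 counts in macula densa cells) and Gdf15 (-3.48 ± 0.83), the latter also on the injury list. Complement genes showed 1 of 8 lower, Serping1 (the C1 inhibitor, 0.825 to 2.81 CPM in control cells and 0.102 to 0.163 CPM in macula densa cells), and none higher. Of 8 metalloproteinases and inhibitors, Timp3 was lower (-1.50 ± 0.31), and none was higher. Of all genes 3.87% (549 of 14180) were lower, and a single gene called among 8 is no result about its list.

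Receptors for the members' proteins were measured in both populations, and none of 9 tested was called on control diet. Lrp2, the megalin receptor that takes up filtered lipocalin, had a level of 47.1 ± 16.7 CPM (SD, n = 2) in macula densa and 17.6 ± 6.604 CPM (SD, n = 4) in control cells. It is also a proximal tubule marker, and the proximal tubule list summed to 126.5 and 207.2 CPM in untreated macula densa against 35.6 to 86.9 CPM in untreated control cells. The part of proximal tubule RNA in the Lrp2 level was not tested. Slc22a17, a lipocalin receptor, lay at 4.93 ± 0.99 and 7.34 ± 2.18 CPM in the same order. Among osteopontin receptors, Itgav lay at 92.1 ± 1.89 and 50.4 ± 16.6 CPM, and Cd44 at 3.26 ± 1.14 and 2.22 ± 1.23 CPM. The log2 difference for the other integrin subunits and Cd63 ran from -1.68 ± 0.96 for Itgb3 to 2.33 ± 0.74 for Itga4.

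The genes most like each member were ranked by Pearson's r of log2 CPM over the 12 libraries, among 6681 genes with a mean of at least 5 CPM. The libraries share groups, depth and cell mixture, so r is a description. Stat3, the transcription factor that answers interleukin 6 type cytokines, was most like Lcn2 (r = 0.97, Spearman's rho 0.97, and r = 0.94 without the 2 libraries farthest from the median Lcn2 level). Stat3 lay at 24.6, 25.2, 29.0 and 29.3 CPM in untreated and at 56.8, 36.1, 70.7 and 36.9 CPM in treated control cells. Macula densa cells held 22.6 and 30.2 CPM of Stat3 untreated and 38.8 and 51.7 CPM treated. Treated Stat3 levels were above untreated ones in both populations, as were those of Lcn2, to which its likeness was ranked. Such a separation was found for 2.12% of genes in control cells and 18.8% in macula densa cells. For Stat3 it therefore carries no test. The next genes were Prkab1 (r = 0.94) and Piezo1 (r = 0.93). For Spp1 they were Clu (0.95), Bicdl1 (0.95) and Lad1 (0.94), and for Clu they were Sat1 (0.98), Rplp0 (0.96) and Spp1. C3 was most like Mical3 (0.92), Cdkn1a most like Bcl2l1 (0.91) and Vcam1 most like Psme2 (0.81). Among the members, r with Lcn2 was 0.92 for Clu, 0.83 for Spp1, 0.79 for Krt20 and 0.77 for C3. It was 0.66 for Sox9, 0.33 for Cdkn1a and 0.16 for Vcam1. Without the 2 libraries farthest from the median these fell to 0.77, 0.65, 0.40, 0.25, 0.25, -0.44 and 0.12 in the same order.

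**Figure D4:**
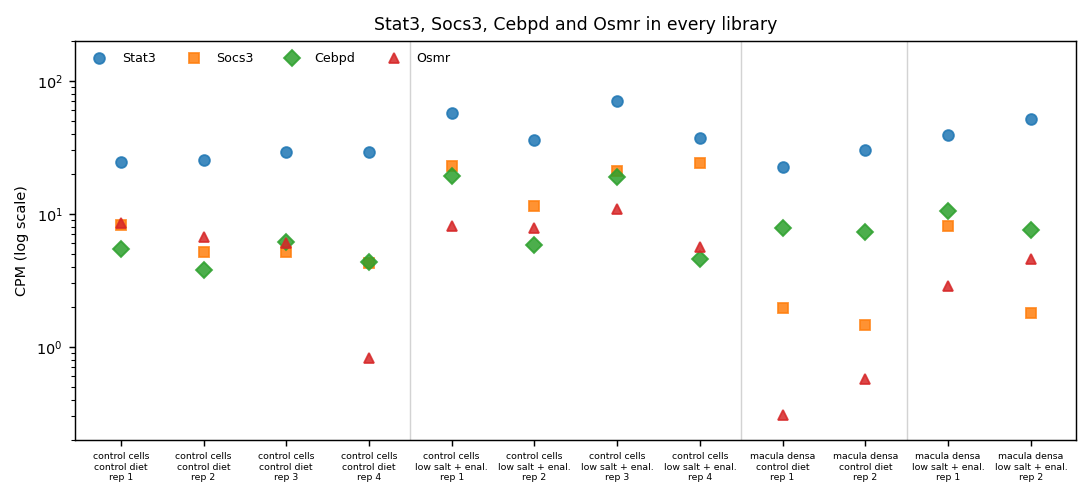
CPM of Stat3, Socs3 (a feedback inhibitor of cytokine signalling), Cebpd (a transcription factor) and Osmr (a cytokine receptor) in each of the 12 libraries, on a log scale. Stat3 is highest in treated control-cell replicates 1 and 3 (56.8 and 70.7 CPM). Cebpd is also highest there (19.2 and 18.9 CPM), while Socs3 is as high in replicate 4 (24.1 CPM) as in replicates 1 and 3 (22.7 and 21.0 CPM). Cebpb, another C/EBP gene that is not drawn, did not follow Cebpd. It lay at 6.98, 14.6, 10.3 and 10.2 CPM in treated control-cell replicates 1 to 4.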

How the data were processed

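The authors deposited a table of estimated counts per gene for the 12 libraries. The submitters' processing notes name STAR 2.61, Partek and mm10, with no role given, and whether the counting used strand is not given in the sources used here. Of the values 16.1% were not whole, and all were rounded before testing. Symbols, starts and ends equalled GENCODE M21 (GRCm38) for 23351 of 23378 rows once 1 was taken from each end. Genes were filtered by filterByExpr (count minimum 10, total minimum 15) in edgeR 4.0.16, R 4.3.3. Libraries were scaled with TMM and fitted with 1 coefficient per group over all 12 libraries (quasi-likelihood test, Benjamini-Hochberg over all genes). Intervals and the floor of 3 counts cover counting error only. The scripts were tested on simulated data. DESeq2 1.42.0 was an alternative.

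The members and lists were chosen with earlier results of these data known. Genes named beside the members are up to 5 per list and direction called on control diet, all tested receptors, the 3 genes most like each member, Nos1, Pappa2, Slc12a1 and Ren1. A gene that this rule names is not reported here. Cebpd, Cebpb and Socs3 were named after their values were seen. In 4 cases a macula densa and a control-cell library share the number in their descriptions. The labels do not say whether these numbers or the replicate numbers of the titles pair the libraries, and the main fit takes no pairing. The list of promoter windows, from RefSeq, held none for Clu, Vcam1 and Sox9.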

Additional observations from a re-analysis of the deposited data

Results flagged for a closer look

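Each member was checked in both control-cell groups, 18 sets of 4 libraries, and in 3 sets a single library stood far off. The treated sets helped to choose the genes, so this number is not set against chance. Havcr1 in treated control-cell replicate 1, at a log2 CPM of 2.32, lay far above replicates 2 to 4. Vcam1 in untreated control-cell replicate 3, at -0.72, lay below the other 3, on 4 counts. Cdkn1a in untreated control-cell replicate 4, at 0.99, lay below the other 3, and this library also held the least podocyte and endothelial marker RNA of the control-cell libraries (43.6 and 44.1 CPM).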

How the results depend on the processing

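On control diet none of the members tested was called under any alternative except the replicate block by the numbers in the descriptions, where Clu and Spp1 passed (edgeR adjusted p = 0.00331 and 0.00116). Over all settings their adjusted p reached 0.852 and 0.565. Counts of all genes called moved more. For the cell populations on control diet (931) they were 608 with a mean of at least 5 CPM, 2000 with the DESeq2 Wald test, 468 with only the groups compared, and 122 (without untreated macula densa replicate 2) to 2491 (without untreated control-cell replicate 4) leaving out 1 library. For the populations on low salt plus enalapril (1032) they were 1922 with the Wald test and 198 (without treated macula densa replicate 2) to 1890 (without untreated control-cell replicate 4). Diet called 93 genes in macula densa cells by the Wald test, 105 with only the groups compared and 0 to 1 leaving out 1 library. In control cells it called 74, 0 and 1 to 5. The difference of diet effects gave 13 by the Wald test. A replicate block by title numbers gave 378 and 394 genes between the untreated and between the treated populations, and 0 for diet in control cells. A block by description numbers gave 2217 and 2192. Same-numbered libraries correlated at -0.38 to 0.28 (14 title pairs, 2 above 0.1) and -0.04 to 0.23 (4 description pairs). Of 8 libraries 0 correlated best with their own description number. With 2 libraries in a macula densa group the deviations from the group mean mirror each other, so this check cannot decide whether the numbers pair libraries. No pairing is taken in the main fit. Library totals alone moved the median of all genes from -0.05 to 0.12 on control diet. Leaving out both treated control-cell replicates high in Lcn2 was chosen after seeing the data. It gave 980, 895, 0, 1 and 0 genes called. Members under 3 counts per library are limited by depth.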

Other observations

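Some genes of the injury and repair list, named here after their values were seen, had high levels in the treated control-cell libraries that were high in Lcn2. Mmp7, a matrix metalloproteinase, lay at 57.8, 0.244 (1 count), 79.2 and 0.203 CPM (2 counts) in treated control-cell replicates 1 to 4, and had no count in the 4 untreated ones. In macula densa cells Mmp7 was detected in treated replicate 1 alone, at 2.87 CPM. Fgg, the fibrinogen gamma chain, lay at 7.44, 1.22, 20.5 and 0.203 CPM in treated control cells, had no count in untreated ones, and lay at 6.69 and 4.75 CPM in treated macula densa cells. Krt19, an epithelial keratin, lay at 16.1, 2.68, 13.6 and 2.94 CPM in treated control cells and at 1.03 to 1.71 CPM in untreated ones. Cp, the copper carrier ceruloplasmin, lay at 51.5, 12.2, 24.7 and 10.4 CPM in treated control cells, and at 2.49 and 0.655 CPM in treated macula densa cells. Mmp7 and Fgg passed the count filter only through treated libraries. Other genes of the list went the other way and were lowest in replicates 1 and 3. Vim lay at 19.7, 72.0, 15.7 and 54.9 CPM in treated control-cell replicates 1 to 4. Igfbp7 lay at 51.3, 88.1, 30.8 and 86.7 CPM, and Tpm1 at 62.1, 90.3, 52.4 and 73.4 CPM.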
